A study of Mus musculus with 8 samples.

Results

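Glucagon (Gcg), somatostatin (Sst) and ghrelin (Ghrl), the hormone genes of the α-, δ- and ε-cells of the pancreatic islet, were followed as 3 of the 24421 genes counted in every cell of 8 islet samples. They were chosen as hormone genes by name, with earlier results of these data known, and all 3 were detected. The samples were islet cells of 8-week-old male C57BL/6J mice profiled in droplets. The 4 control samples came from mice with no operation, so there was no sham surgery. The 4 PPTx samples were taken 2 days after a 50% partial pancreatectomy (PPTx), in which tissue on the splenic side was removed, so islets of PPTx mice came from the part that was left. The operation and the region of the pancreas therefore cannot be told apart in these samples. Each sample pooled islets of 1 to 3 mice, no genetic modification is named, and a p-value measures the spread between such pools.

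Islet endocrine cells each make mainly one peptide hormone. β-cells make insulin (Ins1 and Ins2) and lower blood glucose, α-cells make glucagon and raise it, and δ-cells make somatostatin, which restrains both neighbours through somatostatin receptors. ε-cells make ghrelin, whose octanoyl group is added by the enzyme encoded by Mboat4 and which acts on the receptor Ghsr, and they are abundant in the islet before birth and rare afterwards. PP cells make pancreatic polypeptide (Ppy) and, in part, peptide YY (Pyy). In rodents, α-cells are more frequent in islets of the splenic part and PP cells in islets of the duodenal part of the pancreas.

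The 3 genes lie on different chromosomes, all on the minus strand of mm10 in the RefSeq annotation of GRCm38.p6. Gcg spans chr2:62474530-62483653, Sst chr16:23889573-23891342 and Ghrl chr6:113716119-113719911. The 250 bases before the transcription start are shown because each of these short regions precedes a transcript that takes a large part of the messages of one cell and is near absent from the next, by the counts in these cells. Capitals mark 3 motifs searched on both strands, TGACGTCA (the cAMP response element), TATAAA and TATATAA (2 forms of the TATA box, which can overlap). The motifs were chosen after these sequences were seen. The sequences are written 5′ to 3′ on the strand of the gene.

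Gcg, chr2:62483654-62483903: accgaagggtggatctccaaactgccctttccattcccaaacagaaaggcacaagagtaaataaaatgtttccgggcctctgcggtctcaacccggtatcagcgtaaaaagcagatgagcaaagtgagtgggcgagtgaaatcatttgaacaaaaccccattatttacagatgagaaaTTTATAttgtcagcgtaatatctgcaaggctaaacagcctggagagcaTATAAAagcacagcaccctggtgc

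Sst, chr16:23890845-23891094: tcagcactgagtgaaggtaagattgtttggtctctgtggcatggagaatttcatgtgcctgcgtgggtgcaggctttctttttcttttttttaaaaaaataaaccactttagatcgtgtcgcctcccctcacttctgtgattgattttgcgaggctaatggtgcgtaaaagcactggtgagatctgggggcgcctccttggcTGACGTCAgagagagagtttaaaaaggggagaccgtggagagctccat

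Ghrl, chr6:113719912-113720161: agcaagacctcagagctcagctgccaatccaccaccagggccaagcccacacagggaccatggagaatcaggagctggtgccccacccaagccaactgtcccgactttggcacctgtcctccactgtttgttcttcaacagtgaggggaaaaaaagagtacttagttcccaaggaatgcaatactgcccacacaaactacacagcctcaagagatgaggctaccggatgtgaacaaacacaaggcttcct

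The Sst sequence holds TGACGTCA from 48 to 41 bases before the start. Of 32851 promoters in the table, 1.55% hold this motif in the same window. The Gcg sequence holds TATAAA from 24 to 19 bases before the start, and once more on the opposite strand from 72 to 67 bases before it. TATAAA occurs in 12.4% of promoters and TATATAA in 3.04%. None of these letters occur in the Ghrl window, which was taken at the outermost of 4 starts listed for the gene. The 1 start listed for Sst, at 23890844, lies inside the annotated gene, which ends at 23891342, so the Sst window lies within the gene's span. The match is a description of sequence, and factor binding was not measured.

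The tables list 1240 cells. A filter of 100 to 3000 genes and 100 to 20000 unique molecular identifiers (UMIs) left 1232 of them, 520 of control and 712 of PPTx samples. The deposited total per sample lay between 236645 and 1580152 UMIs, the median per cell between 3328 and 8677 UMIs, and the lowest kept cell had 2005 UMIs. Each cell was assigned to the hormone with most UMIs among insulin (Ins1 and Ins2 summed), Gcg, Sst, Ghrl and Ppy, called its leading hormone. This gave 957 insulin-led, 121 Gcg-led, 16 Sst-led, 1 Ghrl-led and 137 Ppy-led cells, with no ties. In 22 cells the lead over the next hormone was under 2-fold. Summed levels are given as CPM, counts scaled to a total of 1000000 UMIs over the cells named.

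Per cell, most UMIs of each of the 3 hormones lay in few cells. Gcg had no UMI in 560 cells, 1 UMI in 296, 2 to 9 in 216, 10 to 99 in only 20, from 100 to under 1000 in 38 and 1000 or more in 102, up to 5173 UMIs. The 140 cells with at least 100 UMIs held 99.3% of all 231717 Gcg UMIs. Few cells lay between the trace level and the high level.

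Sst was found in fewer cells, with no gap between trace and high levels. It had no UMI in 838 cells, 1 to 9 UMIs in most of the others (218 cells with 1 and 131 with 2 to 9), 10 to 99 in 20 cells, from 100 to under 1000 in 19 and 1000 or more in 6. The 25 cells with at least 100 held 93.9% of its 18874 UMIs. The highest cell had 3041 Sst UMIs.

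Ghrl was absent from 1217 cells, at 1 UMI in 13, at 2 UMIs in 1 and at 4588 UMIs in a single cell. That cell alone held 99.7% of the 4603 Ghrl UMIs of the series. No cell lay in between.

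**Figure D1:**
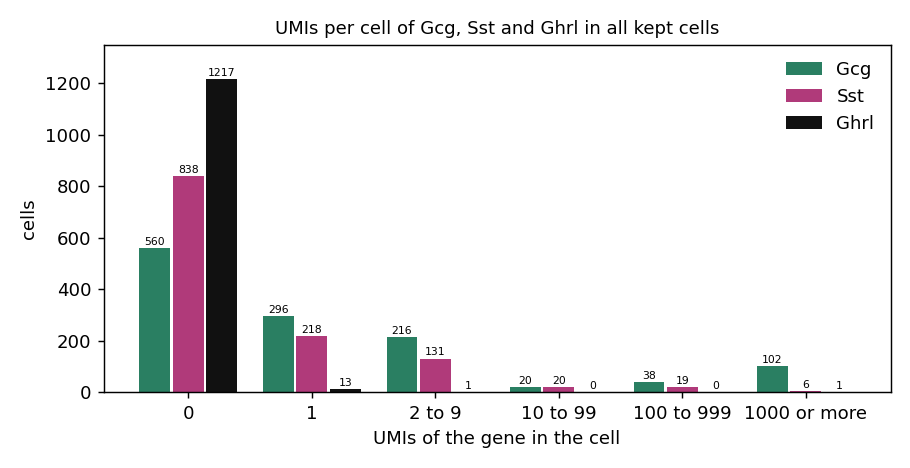
Number of cells (vertical axis) by the UMIs of Gcg, Sst or Ghrl they hold (horizontal axis, 6 ranges), over 1232 cells of 8 samples. Only 20 cells hold 10 to 99 UMIs of Gcg and 102 hold 1000 or more, while Ghrl has 1 cell outside the lowest ranges.

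Each hormone took a large part of the messages in its own class. Gcg-led cells held a median of 42.1% of their UMIs as Gcg, from 15.6% to 58.9% in single cells. Sst-led cells held a median of 28% as Sst, from 6.84% to 56.2%. The Ghrl-led cell held 57.8% of its 7942 UMIs as Ghrl. These shares follow from the rule that sorted the cells and are given as a description. At the edge of the rule, the Gcg-led cell with fewest Gcg UMIs had 425 and the cell outside the class with most had 1602. For Sst the same edge lay at 141 and 1022 UMIs.

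The marker genes of each class were compared with insulin-led cells of the same samples, as a check of the labels on genes that did not sort the cells. In Gcg-led cells, 761 of 1978 genes were called by edgeR's quasi-likelihood test (38.5%, with 17.1% higher and 21.3% lower), so single calls here are common. Of the 12 α-cell markers beside Gcg, 9 passed the filter. A gene low in insulin-led cells could pass it only through Gcg-led cells, and the reverse, so counts and directions over a list are a description here. Irx2, a transcription factor of α-cells, averaged 259 ± 152 CPM (SD, n = 6 samples with at least 5 such cells) and 0.815 ± 0.845 CPM in insulin-led cells. Gpx3, a secreted glutathione peroxidase, averaged 3591 ± 512 CPM against 116 ± 37.1 CPM. Of 8 tested β-cell markers 7 were lower, among them Iapp, which encodes islet amyloid polypeptide (log2 change -5.60, SE 0.51), and G6pc2 (log2 change -4.52, SE 0.23), while Slc30a8, the zinc transporter of insulin granules, was not called (551 ± 131 against 476 ± 76.7 CPM). All named differences except Slc30a8 were in 1 direction in 6 of 6 samples. Of the 10 δ-cell markers beside Sst, Rbp4 and Etv1 passed the filter, and Rbp4 stood at 555 ± 101 CPM in Gcg-led and 27.8 ± 13.7 CPM in insulin-led cells.

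Genes that process and store prohormones were split. Of 10 tested in Gcg-led cells, 4 were higher, 4 lower in the fit and 2 not called. Of the 4 lower, Chgb had a fitted change of -0.38 but means of 710 CPM in Gcg-led and 701 CPM in insulin-led cells, and was higher by CPM in 4 of 6 samples. Pcsk1, the convertase that in β-cells cuts proinsulin, was at 5.31 ± 8.55 CPM in Gcg-led and 111 ± 39.7 CPM in insulin-led cells. It passed the filter through insulin-led cells, so its values are a description. Pcsk2, the convertase that cuts proglucagon to glucagon in α-cells, was higher (log2 change 1.22, SE 0.19, adjusted p = 3.5e-09 by edgeR), as was Pcsk1n, which encodes proSAAS, an inhibitor of Pcsk1 (log2 change 1.59, SE 0.17). Scg2, a granin of the secretory granule, was lower (log2 change -1.98, SE 0.20). Of 18 islet transcription factors, 12 were tested, 5 were called higher and 2 lower, the latter being Nkx6-1 and Insm1, under the same limit of the filter. Of 11 hormone receptor genes only Sstr3 passed the filter on low counts, at 98.7 ± 39.2 against 107 ± 30.5 CPM, and it was not called.

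Sst-led cells were few, so 5 samples with at least 2 of them were compared, a rule added after the class sizes were seen. There 114 of 791 genes were called (14.4%, with 4.93% higher and 9.48% lower). On simulated data this fit recovered only 3.70% of 27 genes changed by 1.5 on the log2 scale, so no call here is no result about a gene. Of 10 δ-cell markers 3 passed the filter, all low in insulin-led cells, so their direction is a description and no support for the label. Cd24a stood at 810 ± 344 against 2.71 ± 2.54 CPM, Rbp4, the retinol carrier, at 2826 ± 706 against 30.3 ± 13.8 CPM, and Fam159b at 776 ± 569 against 35.2 ± 4.96 CPM (SD, n = 5). Hhex, the transcription factor that marks δ-cells, did not pass the filter. Of the β-cell markers 7 passed the filter, most of them through insulin-led cells, where they are high, so their direction is a description too. Iapp, abundant in both classes, was lower (24462 ± 7371 against 46816 ± 4043 CPM, log2 change -1.95, SE 0.49). The α-cell marker Ttr was lower (log2 change -2.93, SE 0.40), but Gpx3 and Tmem27 of the same list were higher (3.24 and 1.38). Of 9 tested prohormone processing and granule genes, Chgb, a granin, was higher in 5 of 5 samples (log2 change 1.93, SE 0.29, adjusted p = 2.3e-09 by edgeR), and Chga and Cpe were lower in the fit (-1.44 and -0.84) although each was lower in only 3 of 5 samples by CPM. The mean of Cpe by CPM ran the other way, at 3213 in Sst-led and 2960.5 in insulin-led cells.

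Among the 275 cells not led by insulin, the genes whose level moved most like Gcg, by Pearson's correlation of log values within samples averaged over 8 samples, included Ttr (0.78), Slc30a8 (0.63), Pcsk1n (0.56) and Gnas (0.52). For Sst they included Fam159b (0.70), Iapp (0.51), Sez6l (0.49) and Fam46a (0.42). The median over 5509 genes was 0.01 for Gcg and -0.01 for Sst. Cells of a sample share their library and depth, so these values describe the cells and carry no test. With ranges from -0.09 to 0.96 over samples for Sez6l, the Sst list rested on few cells. Ghrl was at a UMI in too few cells to be ranked.

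The Ghrl-led cell came from PPTx replicate 1 and had 1637 genes. After Ghrl its most abundant messages were Ttr (203 UMIs, transthyretin), Chga (148 UMIs, chromogranin A) and Rbp4 (93 UMIs). Serpina1b and Serpina1a, which encode α1-antitrypsins, stood at 34 and 21 UMIs, against 0.775 and 0.646 CPM over all other cells. Of ε-cell markers beside Ghrl, Irs4 had 7 UMIs and none in any other cell, Acsl1 had 9 UMIs, Mboat4 had 1 UMI, and Anxa13 had none. The cell had no Gcg or Sst UMI, 15 Ppy UMIs (0.189%) and 31 insulin UMIs (0.390%), and Pcsk1 was at 0 and Pcsk2 at 4 UMIs. One cell of 1232 is a share of 0.0812% (95% Clopper-Pearson interval 0.00206% to 0.451%, counting error only). Beside this cell, 15 Ghrl UMIs were found in 14 cells, and 10 of these cells were among the 124 others of the same sample. The remaining 4 cells lay in 3 other samples, and outside PPTx replicate 1 Ghrl stood at 0 to 1.92 CPM.

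Over all cells of a sample, Gcg was lower after PPTx. It stood at 30391, 30190, 72007 and 39826 CPM in control replicates 1 to 4 and at 7027, 13748, 16320 and 5479 CPM in PPTx replicates 1 to 4. The groups did not overlap, with control replicate 3 the highest of all. The means were 43103 ± 19787 and 10644 ± 5216 CPM (SD, n = 4 each), a ratio of 4.05, and the exact two-sided permutation test gave p = 0.0286, the smallest that 4 against 4 samples allow. In edgeR's quasi-likelihood test over all genes, Gcg fell by 2.1 on the log2 scale (SE 0.30, adjusted p = 0.00099), where 32 of 6753 genes were called (0.474%, with 0.222% higher and 0.252% lower). In that fit 642 of the 6753 genes had an unadjusted p under 0.05, and how many genes did not overlap between the groups was not counted. The call of Gcg ended when the prior degrees of freedom were estimated robustly (adjusted p = 0.16). As in any sum over cells, fewer cells of a type and less RNA per cell cannot be told apart in these values.

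Sst was lower on average after PPTx, with overlap. It stood at 7118, 3612, 2083 and 6774 CPM in the controls and at 915, 330, 2362 and 680 CPM in the PPTx samples, where PPTx replicate 3 lay above control replicate 3. The means were 4897 ± 2452 and 1072 ± 893 CPM (SD, n = 4 each), and the exact permutation test gave p = 0.0571. In edgeR's test Sst fell by 2.19 on the log2 scale (SE 0.40, adjusted p = 0.011). That call was lost with DESeq2 (adjusted p = 0.061), with the robust fit (adjusted p = 0.42) and when control replicate 1, control replicate 4 or PPTx replicate 1 was left out (adjusted p = 0.054, 0.052 and 0.069).

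Ghrl stood at 0, 0, 0.633 and 0 CPM in the controls and at 4857, 1.92, 0.869 and 0 CPM in the PPTx samples. The 1 high value is the sample with the Ghrl-led cell, and the exact permutation test between the groups gave p = 0.143. The filter on low counts left Ghrl out of edgeR's test. Without the filter edgeR gave a log2 change of 11.53 (adjusted p = 3.2e-188), which rests on that 1 cell. Ppy, for comparison, averaged 36268 ± 18371 and 61861 ± 12990 CPM and was not called (log2 change 0.72, SE 0.27, adjusted p = 0.37 by edgeR).

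**Figure D2:**
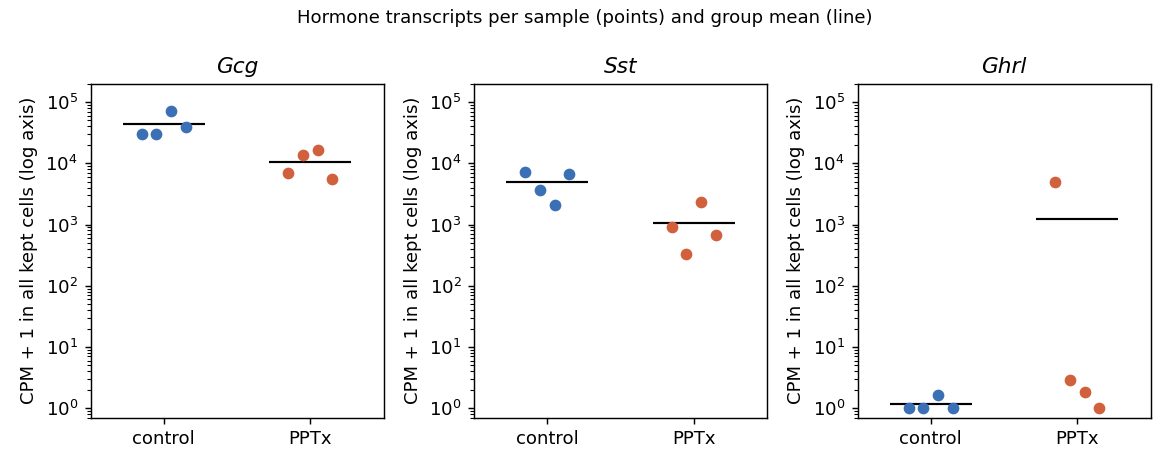
CPM plus 1 of Gcg, Sst and Ghrl over all kept cells (vertical, log axis) in 4 control and 4 PPTx samples, each a point, with the group mean as a line. Gcg does not overlap between the groups, Sst does, and Ghrl stands out in PPTx replicate 1 only.

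Other genes of the α-cell list were compared in the same fit. Of the 12, 9 passed the filter, 4 of these fell in edgeR's test, Irx1, Irx2 and Ttr among them, and none rose. A gene near the filter's minimum could pass through the group where it is high, so this count is a description. Irx2 stood at 21.2 to 39.3 and 1.63 to 11.3 CPM in control and PPTx samples, and Irx1 at 11.1 to 25.7 and 1.92 to 4.89 CPM. Both are low genes that passed mainly through the controls, so their values are given without a test. Ttr averaged 5163 ± 1437 and 2758 ± 359 CPM (log2 change -0.95, SE 0.19, adjusted p = 0.018), and without 1 of the samples its adjusted p reached 0.092. None of 5 tested δ-cell markers beside Sst was called, nor any of 10 tested prohormone processing genes or of 4 tested hormone receptor genes. Over all genes 32 of 6753 were called in this fit (0.474%), so no call in such short lists is no result about them.

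The share of cells led by each hormone was compared next. Gcg-led cells were 9.23%, 11.8%, 28.3% and 16.3% of control replicates 1 to 4 and 3.20%, 3.06%, 5.93% and 1.27% of PPTx replicates 1 to 4, 98 and 23 cells in all. The groups did not overlap, at 16.4% ± 8.48 and 3.36% ± 1.92 (SD, n = 4 each; exact permutation p = 0.0286, 0.0714 after adjustment over 5 hormones). Sst-led cells were 3.08%, 2.94%, 1.07% and 3.01% of the controls and 0.800%, 0.340%, 1.48% and 0% of the PPTx samples, from 12 and 4 cells (exact permutation p = 0.0571, adjusted 0.0952, and p = 0.0286 without control replicate 3). The 0 of 158 cells in PPTx replicate 4 allows a share of up to 1.90% by the limit of 3 counts, which covers counting error only. The Ghrl-led cell was 0.800% of PPTx replicate 1, and by the same limit the 0 counts elsewhere allow up to 1.02% in the largest and 4.62% in the smallest sample.

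Ppy-led cells were 6.29% ± 2.80 of control and 14.3% ± 1.61 of PPTx samples, with no overlap (exact permutation p = 0.0286, adjusted 0.0714), and insulin-led cells were 74.8% ± 7.89 and 81.5% ± 3.98 (p = 0.171 by the same exact test). Of the cells led by another hormone than insulin, Gcg led 50.0% to 82.8% in the controls and 9.52% to 25.8% in the PPTx samples. No adjusted value passed 0.05. Summed acinar markers stood at 5.13 to 39.6 CPM in control and 11.3 to 155 CPM in PPTx samples, and stellate markers at 0 to 37.9 and 2.61 to 249.5 CPM. Ductal markers stood at 146 to 219 and 165 to 312 CPM and immune markers at 22.2 to 54.4 and 21.7 to 131 CPM, while endothelial markers reached at most 8.79 CPM. The part of such cells in these results was not tested.

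**Figure D3:**
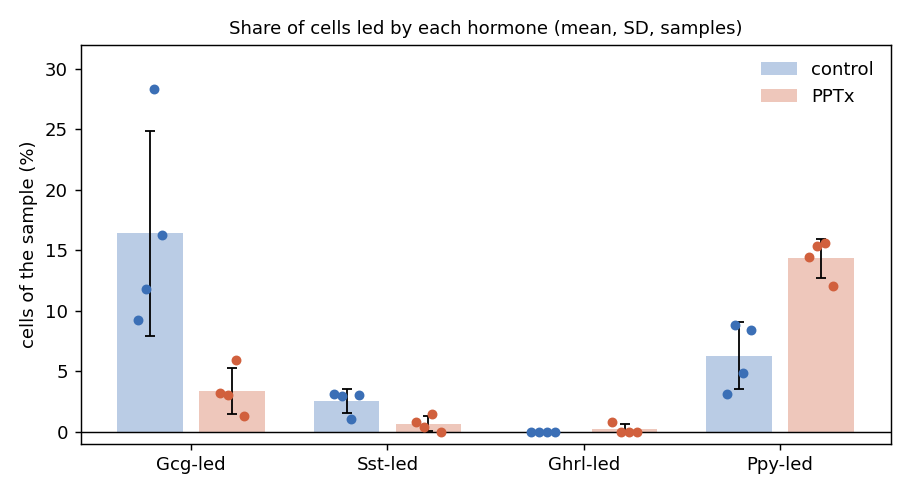
Percent of the cells of each sample (vertical axis) led by Gcg, Sst, Ghrl or Ppy. Bars are means of 4 samples, error bars 1 SD and points the samples. Gcg-led cells are at 16.4% in control and 3.36% in PPTx samples, and Ppy-led cells at 6.29% and 14.3%.

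Within the cells led by a hormone other than insulin, the same order held for the levels. Gcg averaged 244355 ± 91805 CPM in control and 65608 ± 29084 CPM in PPTx samples (SD, n = 4 each), without overlap (exact permutation p = 0.0286), but edgeR did not call it (log2 change -1.74, SE 0.51, adjusted p = 0.15), while DESeq2 did (adjusted p = 3.4e-05). Sst averaged 29019 ± 21826 and 5051 ± 4261 CPM (log2 change -2.29, SE 0.55, adjusted p = 0.052 by edgeR). Without PPTx replicate 3 both passed (adjusted p = 0.041 for Gcg and 0.0016 for Sst), and without control replicate 2 Sst did (0.0497). In this fit 6 of 1591 genes were called (0.377%, with 0.0629% higher and 0.314% lower). Irx2 was among the lower ones, at 99.1 to 261 CPM in control and 15.5 to 67.6 CPM in PPTx samples. Folr1, from the PP-cell list, was the 1 gene called higher, at 0 to 160.5 and 192 to 309 CPM, but its adjusted p of 0.041 was 0.11 with edgeR's robust fit and up to 0.42 without 1 of the samples. Both are low genes that could pass the filter through the group where they are high. Without control replicate 3, which holds 53 of the 98 control Gcg-led cells, no gene was called by edgeR, with 101 genes at an unadjusted p under 0.05.

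Inside Gcg-led cells the level of Gcg itself was 1.23 times as high in control as in PPTx samples. It stood at 450332, 423033, 457791 and 414058 CPM in the controls and at 360936, 355704, 374577 and 326119 CPM in the PPTx samples, without overlap. The means were 436303 ± 21051 and 354334 ± 20423 CPM (SD, n = 4 each; exact permutation p = 0.0286), and edgeR, which rescales libraries for their composition, put the change at -0.28 (SE 0.16, adjusted p = 0.66). PPTx samples had 2 to 9 such cells each. Gcg is the gene that sorted these cells, so its values here are a description and the p-value is no support for a change per cell. CPM is also a share of a total. In the same cells Ppy averaged 17143 CPM in control and 64155 CPM in PPTx samples, and Pyy 15309 and 65680 CPM.

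Ppy in these Gcg-led cells was higher after PPTx. It stood at 11752, 25813, 15615 and 15392 CPM in the controls and at 67509, 66170, 45806 and 77136 CPM in the PPTx samples, without overlap (exact permutation p = 0.0286). In edgeR's test it rose by 1.91 on the log2 scale (SE 0.25, adjusted p = 2.8e-07), 1 of 3 genes called among 290 (1.03%). The other 2, named because they are so few, were Pyy (log2 change 2.1, SE 0.27) and Iapp (2.08, SE 0.43). At least 1% of the UMIs were Ppy in 19 of 98 control and 15 of 23 PPTx Gcg-led cells, which was 16.7% to 25% of the class in the control samples and 50.0% to 87.5% in the PPTx samples. The median Gcg-led cell held 0.0735% Ppy in control and 5.41% in PPTx mice. Without the filter on low counts the call was lost (log2 change 1.39, adjusted p = 0.67 by edgeR, with no gene called and 633 of 11116 at an unadjusted p under 0.05).

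In Ppy-led cells, Gcg was not called between the groups (log2 change -0.09, SE 0.77, adjusted p = 1.0 by edgeR), nor was Sst (-2.21, SE 1.21, adjusted p = 0.88), and none of 503 genes was (0%, with 17 at an unadjusted p under 0.05 and 1 called by DESeq2). Gcg ranged from 154 to 17972 CPM over the controls and from 3596 to 18042 CPM over the PPTx samples. Sst was at most 433 CPM in 6 of 8 samples and reached 20533 CPM in control replicate 3 and 3985 CPM in PPTx replicate 4. Each of these rests on 1 cell, with 1022 of 1198 and 206 of 233 Sst UMIs of the class.

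Joint expression was concentrated in pairs with Ppy. At 1% or more of a cell's UMIs, Gcg and Ppy were together in 54 cells, 25 of control and 29 of PPTx mice, which is 37.2% of the 145 cells with that much Gcg and 24.8% of the 218 with that much Ppy. Sst and Ppy were together in 18 cells, 64.3% of the 28 Sst cells and 8.26% of the Ppy cells. Gcg and Sst shared only 2 cells, and Ghrl shared none with any of the 3. In all, 70 cells (5.68%) held at least 2 of the 4 hormones at this level. Their median was 4392 UMIs, against 4276 UMIs in cells with exactly 1 of the 4 and 6130 UMIs in cells with none. No doublet caller was run, and the part of droplets with a pair of cells was not tested. Per sample their share was 6.45% ± 2.30 in control and 4.87% ± 2.81 in PPTx mice (SD, n = 4 each), a difference within the spread (exact permutation p = 0.457).

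**Figure D4:**
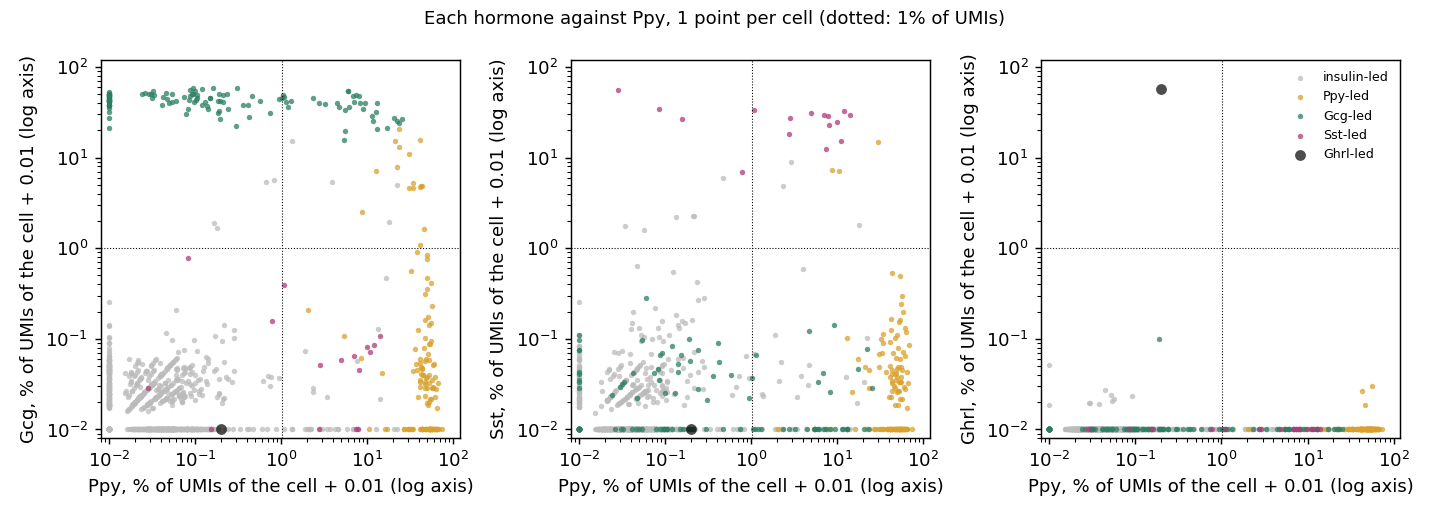
Percent of the UMIs of each cell from Gcg, Sst or Ghrl (vertical) against the percent from Ppy (horizontal), both on log axes with a small offset, for 1232 cells coloured by leading hormone, with dotted lines at 1%. The upper right holds 54 cells for Gcg, 18 for Sst and none for Ghrl.

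Compared within samples, Ppy in Gcg-led cells was above Ppy in insulin-led cells in 6 of 6 samples with at least 5 Gcg-led cells. It averaged 30091 ± 21582 against 2568 ± 2450 CPM, a mean log2 difference of 4.17 ± 1.86 (SD). An exact two-sided sign-flip permutation test gave p = 0.03125, the smallest that 6 samples allow, and 0.094 after adjustment over 6 pairs. Some of these levels rest on a single Gcg-led cell, with 171 of 179 Ppy UMIs in control replicate 1 and 880 of 1038 in control replicate 2. In control replicate 3 the highest cell held 1182 of 3829. Among insulin-led cells the highest held 966 of 998 Ppy UMIs in control replicate 1 and 90 of 269 in control replicate 2. Gcg in Ppy-led cells was above Gcg in insulin-led cells in 7 of 7 samples, at 10215 ± 7392 against 607 ± 645 CPM (mean log2 difference 4.40 ± 2.56, exact p = 0.0156, adjusted 0.094). Few cells carried these levels: 16 of 137 Ppy-led cells held 1% or more Gcg, and the median cell held 1 Gcg UMI. A single cell held 926 of the 1009 Gcg UMIs of the class in control replicate 3, 757 of 1078 in PPTx replicate 3 and 763 of 1055 in PPTx replicate 4. The highest cell held 390 of 483 in PPTx replicate 1 and 1086 of 1678 in control replicate 4. It held 46 of 87 in control replicate 2 and 394 of 1025 in PPTx replicate 2. With 1 cell as the minimum, a rule added after the data were seen, both pairs were in 1 direction in 8 of 8 samples (exact p = 0.0078, adjusted 0.035 over 9 pairs). For Gcg in Ppy-led cells the added sample, control replicate 1, rests on 1 UMI in 2 cells (154 against 149.6 CPM), and the adjusted p depends on it.

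Sst outside its own class was not above insulin-led cells in every sample. In Gcg-led cells it stood at 158 ± 129 CPM against 489 ± 552 CPM in insulin-led cells, higher in 2 of 6 samples (exact permutation p = 0.25). No Gcg-led cell reached 1% Sst, and the highest had 11 Sst UMIs. In Ppy-led cells Sst was higher than in insulin-led cells in 5 of 7 samples (exact permutation p = 0.484). Conversely, 12 of 16 Sst-led cells held at least 1% Ppy, 10 of 12 in control and 2 of 4 in PPTx mice, with a median of 148.5 Ppy UMIs and at most 21 Gcg UMIs in any. Ppy was higher in Sst-led than in insulin-led cells in 6 of 7 samples under the 1-cell rule (exact permutation p = 0.0469, adjusted 0.141), the exception being the single Sst-led cell of PPTx replicate 1. Only control replicate 4 reached 5 Sst-led cells, where Ppy was at 53836 CPM against 919 CPM.

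Insulin-led cells gave the background of each hormone, since free RNA in droplets can put a few UMIs into any cell. Of 957 insulin-led cells with a median of 6061 UMIs, 455 (47.5%) had a Gcg UMI, 258 (27%) an Sst UMI and 10 (1.04%) a Ghrl UMI. For most the number was small, with a 90th percentile of 3 UMIs for Gcg and 2 for Sst. Gcg-led cells, at a median of 4004 UMIs, had an Sst UMI in 39.7%, and Sst-led cells, at 2864.5 UMIs, had a Gcg UMI in 75%. Such shares at 1 or 2 UMIs are not read as expression, and their source was not tested. At 1% or more of the UMIs, Gcg was present in 8 insulin-led cells (69 to 1602 UMIs), Sst in 9 (34 to 712 UMIs) and Ppy in 35. Those few cells held 78.8% of the Gcg and 78.9% of the Sst UMIs of the whole class. The 45 cells with any of them had a median of 4392 UMIs against 6130 UMIs in the other insulin-led cells.

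Per sample, Gcg in insulin-led cells was 150, 1175, 405 and 146 CPM in the controls and 73.9, 1784, 113 and 549 CPM in the PPTx samples. High values in control replicate 2, PPTx replicate 2 and PPTx replicate 4 broke any order by group. Sst was 94.7, 69.9, 285 and 1479 CPM in the controls and 124, 212, 796 and 334 CPM in the PPTx samples, highest in control replicate 4. Neither was called (log2 change 0.22, SE 0.62, adjusted p = 0.95 for Gcg and -0.56, SE 0.58, adjusted p = 0.83 for Sst by edgeR, with 19 of 5929 genes called, 0.320%, of which 0.186% higher and 0.135% lower).

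Once the 45 cells were left out, an alternative added after the data were seen, high values fell by construction, because the cells were chosen for holding any of these hormones. Where they held little Gcg, it rose slightly. This was so in control replicate 1 (150 to 153 CPM), control replicate 4 (146 to 147 CPM) and PPTx replicate 1 (73.9 to 76.3 CPM). Gcg then stood at 103 to 238 CPM in the controls and 30.8 to 125 CPM in the PPTx samples, or 0.330% to 1.09% of its level over all cells of the sample. Its change was -1.23 (adjusted p = 0.029 by edgeR), in the direction opposite to the fit with all cells, while the exact permutation test gave p = 0.0571. Sst stood at 67.9 to 96.9 and 64.6 to 145 CPM (exact permutation p = 0.457). For Sst this was 1.07% to 43.8% of the level over all cells, highest in PPTx replicate 2. Ppy stood at 121 to 245 CPM in the controls and 280 to 680 CPM in the PPTx samples, without overlap (exact permutation p = 0.0286). With all insulin-led cells Ppy stood at 149 to 4975 CPM in the controls and 2461 to 5971 CPM in the PPTx samples.

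**Figure D5:**
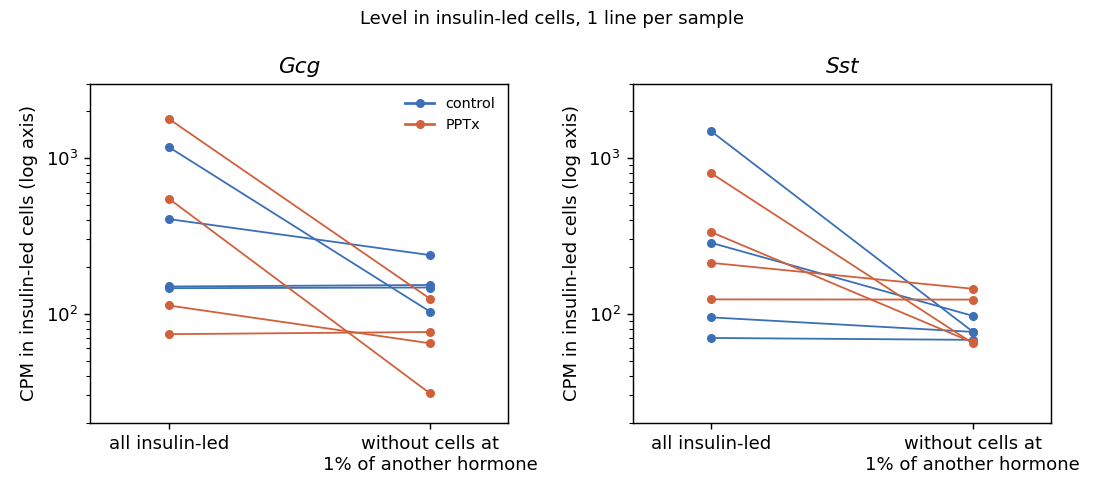
CPM of Gcg and Sst in insulin-led cells (vertical, log axis), for all such cells and without those that hold 1% or more of Gcg, Sst, Ghrl or Ppy, 1 line for each of 8 samples. Without them Gcg lies at 30.8 to 238 CPM and Sst at 64.6 to 145 CPM.

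The level of each hormone in insulin-led cells was also set against the level that the other cells of the same sample supplied. Relative to the level over all cells, Gcg in insulin-led cells had a median of 0.872% and Sst of 17.8%, and the log2 of this ratio differed between PPTx and control by 1.98 for Gcg (exact permutation p = 0.171) and 2.71 for Sst (p = 0.0857 by the same exact test). Across the 8 samples, the level of Gcg in insulin-led cells against the supplied level gave no relation past the threshold (Pearson's r = -0.16, exact permutation p = 0.68; Spearman's rho = -0.048, p = 0.93; r = -0.18 without the 2 samples farthest from the median). Neither did Sst (r = 0.28, exact permutation p = 0.55; rho = -0.14, p = 0.75), where r turned to -0.11 without the 2 farthest samples. Without the 45 cells, the alternative added after the data were seen, r was 0.91 for Gcg (exact permutation p = 0.0029), 0.78 for Ppy (exact permutation p = 0.023) and -0.46 for Sst. Supplied Gcg did not overlap between the groups, so a relation with it cannot be told apart from the group. With all insulin-led cells and after adjustment over 4 hormones, each p was 0.68 or higher for r in Gcg, Sst and Ppy. The r of 0.99 for Ghrl (exact permutation p = 0.0536, adjusted 0.214) rests on PPTx replicate 1, where 7 insulin-led cells had 1 Ghrl UMI each.

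To set aside depth, each insulin-led cell was thinned to 2000 UMIs, with no cell left out. A Gcg UMI then remained in 28.1% ± 14.4 of insulin-led cells in control and 14.2% ± 5.90 in PPTx samples (SD, n = 4 each; exact permutation p = 0.114), against 60.2% ± 23.8 and 34.9% ± 14.5 before thinning. An Sst UMI remained in 10.2% ± 3.64 and 13.3% ± 4.17 (exact permutation p = 0.314). A Ghrl UMI remained in none of the control cells and in 3.96% of those of PPTx replicate 1. A Ppy UMI remained in 24.8% ± 7.74 and 55.1% ± 11.5, without overlap (exact permutation p = 0.0286, adjusted over 4 hormones 0.114).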

How the data were processed

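Gene expression was measured per islet cell in 4 control and 4 PPTx samples. The authors made UMI counts per gene symbol and cell (bcl2fastq and build mm10 per the labels, Cell Ranger per the methods of the study) and deposited these raw counts, 1 table for each sample. The methods name the ddSEQ system and the labels a Chromium library kit. Which cells the tables hold, and by what choice, is not given in the sources used here. The members, gene lists and promoter motifs were chosen with earlier results of these data known.

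The filter on cells (100 to 3000 genes, 100 to 20000 UMIs) follows the study. No doublet caller was run, and 1 barcode is shared between samples. Counts were summed per sample, or per sample and class, and fitted with edgeR 4.0.16 (filterByExpr, TMM, quasi-likelihood, Benjamini-Hochberg adjusted p under 0.05), with sample as a block between classes. DESeq2 1.42.0, a robust prior and other settings were alternatives. Single values were compared by exact two-sided permutation or sign-flip tests over samples, on log2(CPM + 1) for levels (Python 3.11.15, scipy 1.17.1). Class comparisons used samples with at least 5 cells of the class. From each list up to 4 called genes were named by largest change, with a log2 CPM of at least 5 and 1 direction in every sample, and for each member the 5 genes most like it. A few of these genes are not reported here. Other named genes were chosen after their values were seen. RefSeq promoters (GRCm38.p6) matched all 3 members. Scripts were tested on simulated data. Of genes changed there by 1.5 on the log2 scale, edgeR recovered 3.70% in Sst-led against insulin-led cells. In the other comparisons it recovered 60.7% to 90.1%. Kept cells held 2005 UMIs or more, and intervals and limits cover counting error only.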

Additional observations from a re-analysis of the deposited data

Results flagged for a closer look

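In 10 of 32 groups of 4 samples, 1 sample lay far from the other 3 by Dixon's criterion (critical value 0.829 of the range). Chance gives about 1 in 20 groups for independent values, but these groups are overlapping cell populations of the same samples, and where 3 samples are at 0 any value above 0 in the other meets the criterion. For Ghrl 6 of the 10 groups were found, of which 4 rest on the Ghrl-led cell or its sample: PPTx replicate 1 stood at 4857 CPM over all cells, at 8.92 CPM in insulin-led cells and at 28346 CPM in cells led by another hormone, and 0.8% of its cells were led by Ghrl. The other 2 rest on 1 Ghrl UMI in control replicate 3, at 0.633 CPM over all cells and 0.787 CPM in insulin-led cells. Sst in insulin-led cells was far higher in control replicate 4 (1479 CPM) than in the next control (285 CPM). The highest cell held 671 of the 1288 Sst UMIs behind the first value and 240 of the 362 behind the second. The share of Sst-led cells was lowest in control replicate 3, at 1.07% from 2 cells, against 2.94% in the next control. Sst in Ppy-led cells was 20533 CPM in control replicate 3, with the next control at 308 CPM, and 3985 CPM in PPTx replicate 4, with the next at 433 CPM. A single cell held 1022 of the 1198 and 206 of the 233 Sst UMIs behind these values.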

How the results depend on the processing

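Of 654 alternative values for 49 results, 540 kept their direction and their side of the threshold. The differences below are PPTx against control on the log2 scale unless another scale is named, and where a value moved the cause was not tested. Over all cells, Gcg stayed at -2.10 with a robust prior but lost its call, and Sst lost it with DESeq2 (-2.20), with a robust prior (-2.19) and in the exact permutation test (-2.38), with -2.91 to -1.87 when single samples were left out. Leaving out the 45 insulin-led cells with 1% or more of another hormone, added after the data were seen, gave -1.23 for Gcg and 0.19 for Sst in insulin-led cells, where Gcg also turned with the deepest 5% of cells left out (-0.72), with a 2-fold lead required (-0.012) and as a difference of mean logs (-0.084), as did Sst in the last (0.33). Without single samples these ranged from -1.01 to 1.16 for Gcg and from -1.28 to 1.02 for Sst. In cells led by another hormone, Gcg passed with DESeq2 (-1.73), a robust prior (-1.74) and the exact permutation test (-1.92), with -2.09 to -1.45 without single samples, and Sst passed without the deepest cells (-2.29) and without the filter on low counts (-2.11), with -3.02 to -1.73 without single samples. In Gcg-led cells, Gcg, which sorted these cells, passed in the exact permutation test (-0.30), and Ppy did not pass without the filter (1.39). In Ppy-led cells, Gcg turned in the permutation test (1.32) and with a 2-fold lead (0.12) and ranged from -0.69 to 0.42 without single samples, Sst ranged from -4.29 to 2.77, and Ppy turned without the filter (0.35).

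For the level in insulin-led cells against the supplied level, Pearson's r without the 45 cells was 0.91 for Gcg, -0.46 for Sst, 0.78 for Ppy and 0.99 for Ghrl, and 0.99 for Ghrl with a 2-fold lead. Supplied Gcg separates the groups, so that r is not separate from the group. For Sst r was -0.11 without the 2 farthest samples. Without single samples r ranged from -0.31 to 0.084 for Gcg, from -0.33 to 0.68 for Sst, from 0.38 to 0.99 for Ghrl and from -0.14 to 0.61 for Ppy. The log2 ratio of Ppy in insulin-led cells to all cells ranged from 0.63 to 2.23. Between Gcg-led and insulin-led cells, Ghrl went to -0.084 with 1 cell as the minimum and from -0.37 to 0.73 without single samples, and Ppy from 3.66 to 4.75, where 5 samples cannot reach an exact p under 0.0625. Without single samples, the difference in share ranged from -15.4 to -9.06 percentage points for Gcg-led cells, from -2.35 to -1.65 for Sst-led cells, and from 25.7 to 34.9 for insulin-led cells with a Ppy UMI. The lists gave 29 called genes in Sst-led cells without the filter against 18 with it. Over all genes 848 of 13255 were called without it and 114 of 791 with it.

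Replicate numbers are shared by both groups, but deviations of same-numbered samples correlated at 0.033, 0.017, 0.058 and 0.17 over 6661 genes, and not every sample correlated best with its own number, so the numbers were not taken to pair the samples. With the replicate block, Gcg was at -0.076 and Sst at 0.18 in insulin-led cells, Gcg at 0.82 and Sst at 0.23 in Ppy-led cells, and Sst at -2.70 in cells led by another hormone (adjusted p = 0.038 by edgeR). With 4 pairs an exact p cannot go below 0.125, the value for Gcg-led cells (-13.0 percentage points), Ppy-led cells (8.03) and insulin-led cells with a Ppy UMI (30.3). With the block, 59 genes were called over all cells and 40 in insulin-led cells, against 32 and 19 without it.

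Counts of all genes called depended on the setting. Over all cells they ran from 10 (without PPTx replicate 1) to 118 (without the filter), in insulin-led cells from 1 to 92, and in cells led by another hormone from 0 (without control replicate 3) to 21. In Gcg-led cells they ran from 0 without the filter to 6, and against insulin-led cells from 456 (without control replicate 3) to 1331 (without the filter). In Ppy-led against insulin-led cells the filter moved them from 926 to 1568, and in Sst-led against insulin-led cells from 114 to 848. Sst-led cells number 0 to 5 and Ghrl-led cells 0 or 1 in a sample, and this depth limits what their values can show.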
